A study of Mus musculus with 16 samples.

Results

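Liver genes that make, move or break down glutamine and glutamate were followed across control liver, Axin1-deleted liver and Axin1-deleted tumours. They were chosen by gene symbol, with earlier results of these data known. Of the 9 listed genes, 8 were measured (Glul, Slc1a2, Oat, Rhbg, Glud1, Slc38a2, Slc38a3 and Slc38a4), of 23279 genes in all. Gls2, the liver glutaminase, was not analysed here. RNA of male mice aged 16 months was hybridised to 16 arrays. The 3 control mice (numbers 10, 11 and 12) did not carry the deletion. In the other mice both copies of a floxed Axin1 gene (Axin1 fl/fl) were deleted by Alfp-Cre, a recombinase active in the hepatocytes of the embryo, and cells not descended from those should keep the gene. The labels do not say whether controls carry the floxed allele or the Cre. The deleted mice gave non-tumoral liver next to tumours of 5 animals (121, 123, 124, 1931 and 81) and 8 tumours of 6 animals (81, 90, 93, 123, 124 and 3 from 121). Whether 1931 and 93 are the same mouse is not given, and they are counted as different mice. The 3 tumours of mouse 121 were averaged, so that each group counts mice. Values are on the log2 scale, on which a difference of 1 is 2-fold. The differences and their standard errors (SE) come from 1 limma fit of all 3 groups, with p-values adjusted over all genes and a threshold of 0.05.

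The deleted gene, Axin1, averaged 5.26 ± 0.20 across the 3 controls (SD over mice), 4.20 ± 0.21 across the 5 adjacent livers and 4.44 ± 0.31 across the 6 tumour mice, and all 13 arrays of deleted mice lay below all 3 controls. By limma neither difference from controls passed (adjusted p = 0.255 for adjacent liver and 0.102 for tumours), and whether the probes cover the deleted part is unknown. Array medians ran from 4.37 to 4.50, and precision is limited by how few arrays there are. The 7 hepatocyte markers measured had a mean log2 value of 11.77 to 11.92 in controls, 11.80 to 11.92 in adjacent liver and 11.50 to 11.85 in tumours, so the labelled tissue carried its defining genes in every group. Whole tissue was measured, in which fewer cells of a type and less RNA per cell cannot be told apart.

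Liver handles glutamine by zone. Hepatocytes around the portal vein split glutamine with glutaminase and pass the ammonia to the urea cycle, while a thin layer of hepatocytes around the central vein takes up glutamate and leftover ammonia and joins them with glutamine synthetase, the product of Glul. Beta-catenin, the effector of Wnt signalling that Axin1 helps to degrade, is known to switch on this pericentral programme, of which Glul, the glutamate transporter Slc1a2, the ornithine aminotransferase Oat and the ammonia transporter Rhbg are textbook members. Glud1, the mitochondrial glutamate dehydrogenase, and the sodium-coupled transporters Slc38a2, Slc38a3 and Slc38a4 act more widely in the organ.

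The promoters of the 3 members with the largest differences between tumours and adjacent liver are shown because TCF factors, the DNA-binding partners of beta-catenin, are known to bind sites built around the letters CTTTGA. Windows of RefSeq (GRCm38.p6) were given for 6 of the 9 listed genes. Each sequence is the 250 bases upstream of an annotated start, 5′ to 3′ on the gene's strand, with matches to CTTTGA on either strand in capitals.
Glul: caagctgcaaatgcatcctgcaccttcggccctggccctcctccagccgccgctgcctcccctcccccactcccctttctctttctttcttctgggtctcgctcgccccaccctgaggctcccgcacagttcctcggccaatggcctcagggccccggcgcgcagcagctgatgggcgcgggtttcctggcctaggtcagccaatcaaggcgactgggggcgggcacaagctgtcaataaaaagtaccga
Slc1a2: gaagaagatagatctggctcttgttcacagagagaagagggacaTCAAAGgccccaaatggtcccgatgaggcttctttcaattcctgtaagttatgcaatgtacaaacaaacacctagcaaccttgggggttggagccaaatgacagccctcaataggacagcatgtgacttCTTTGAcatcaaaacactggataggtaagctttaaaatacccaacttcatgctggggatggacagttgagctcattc
Oat: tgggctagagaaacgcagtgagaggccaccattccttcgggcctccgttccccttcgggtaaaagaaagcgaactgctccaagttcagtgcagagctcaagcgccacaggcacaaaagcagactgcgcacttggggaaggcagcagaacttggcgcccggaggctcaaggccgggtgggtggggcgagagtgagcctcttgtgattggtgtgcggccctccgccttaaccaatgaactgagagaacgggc
The Glul window is chr1:153899679-153899928 on the plus strand, the Slc1a2 window chr2:102706188-102706437 on the plus strand and the Oat window chr7:132576399-132576648 on the minus strand. The Slc1a2 window held 2 matches, one 206 to 201 bases before its start on the reverse strand and one 77 to 72 bases before it on the forward strand. It belongs to a start that lies inside the annotated gene, not at the gene's first start. The Glul and Oat windows held 0 matches, as did those of Glud1, Slc38a2 and Slc38a4. Of 32851 promoter windows of the same length, 13.8% held at least 1 match, so a match is frequent by itself. A match or its absence describes these letters and no binding was measured.

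Glul, which encodes the enzyme that makes glutamine, lay below adjacent liver in every tumour. It was 11.32, 10.42 and 11.21 in control mice 10, 11 and 12, and 11.09, 11.23, 11.16, 11.26 and 11.55 in the adjacent livers of mice 121, 123, 124, 1931 and 81. The 6 tumour mice had a lowest value of 7.98, a median of 9.29 and a highest of 10.76. Mouse 81 was the lowest and mouse 93 the highest, and the tumours did not overlap with adjacent liver, although mouse 93 lay above the lowest control. The tumour mean of 9.28 ± 1.12 (SD, n = 6) was 3.95-fold below the adjacent mean of 11.26 ± 0.17 (n = 5), a log2 difference of -1.98 (SE 0.42, 95% confidence interval -2.88 to -1.08). Its adjusted p of 0.0634 in limma missed the threshold.

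Slc1a2, the high-affinity glutamate transporter that feeds pericentral glutamine synthesis, had the largest log2 difference of the measured members. Its values were 8.54, 8.23 and 9.24 in controls 10, 11 and 12, and 8.23, 8.38, 9.03, 8.83 and 9.09 in the adjacent livers of mice 121, 123, 124, 1931 and 81. Tumour mice ran from 4.20 through a median of 5.37 to 7.83. Every tumour mouse lay below every control and every adjacent liver, and tumours 81, 90 and 123 (4.20 to 4.395) sat near the median of all values of the arrays, 4.45. The tumour mean of 5.64 ± 1.58 (SD, n = 6) against 8.72 ± 0.39 (n = 5) in adjacent liver is a log2 difference of -3.07 (SE 0.59, interval -4.33 to -1.81, limma adjusted p = 0.0589). The files hold no detection call, and values this dim are compressed, so no fold is given. Against controls the difference was -3.03 (SE 0.69, adjusted p = 0.106).

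Neither gene passed in the fit without pairing, and for both the call depends on how the mice enter it. A random replicate block for the animal over all 16 arrays, with the tumours of mouse 121 entered separately, gave -1.81 for Glul (adjusted p = 0.0472) and -2.92 for Slc1a2 (adjusted p = 0.0470), and both passed. The 8 tumours entered separately without a block gave -1.79 (adjusted p = 0.0591) and -2.90 (adjusted p = 0.0559). The random block with the tumours of mouse 121 averaged, a fit added after the data were seen, gave -1.99 (adjusted p = 0.0501) and -3.08 (adjusted p = 0.0424), and Slc1a2 alone passed. A fixed block for the animal was fitted in limma to only the 4 animals that gave both tissues. There the genes differed by -2.10 (adjusted p = 0.152) and -3.23 (adjusted p = 0.112), and neither passed. Tumour 93 also decided the call: without it the adjusted p was 0.00872 for Glul, 0.00531 for Slc1a2 and 0.0231 for Slc38a3. Against controls the same 3 genes passed without tumour 93, at 0.0426, 0.0186 and 0.0282. Its omission also raised the share of all genes called, from 0.155% to 3.19% against adjacent liver and from 0.0258% to 1.04% against controls. Without tumour 124, Slc1a2 alone passed against adjacent liver, at 0.0459.

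**Figure D1:**
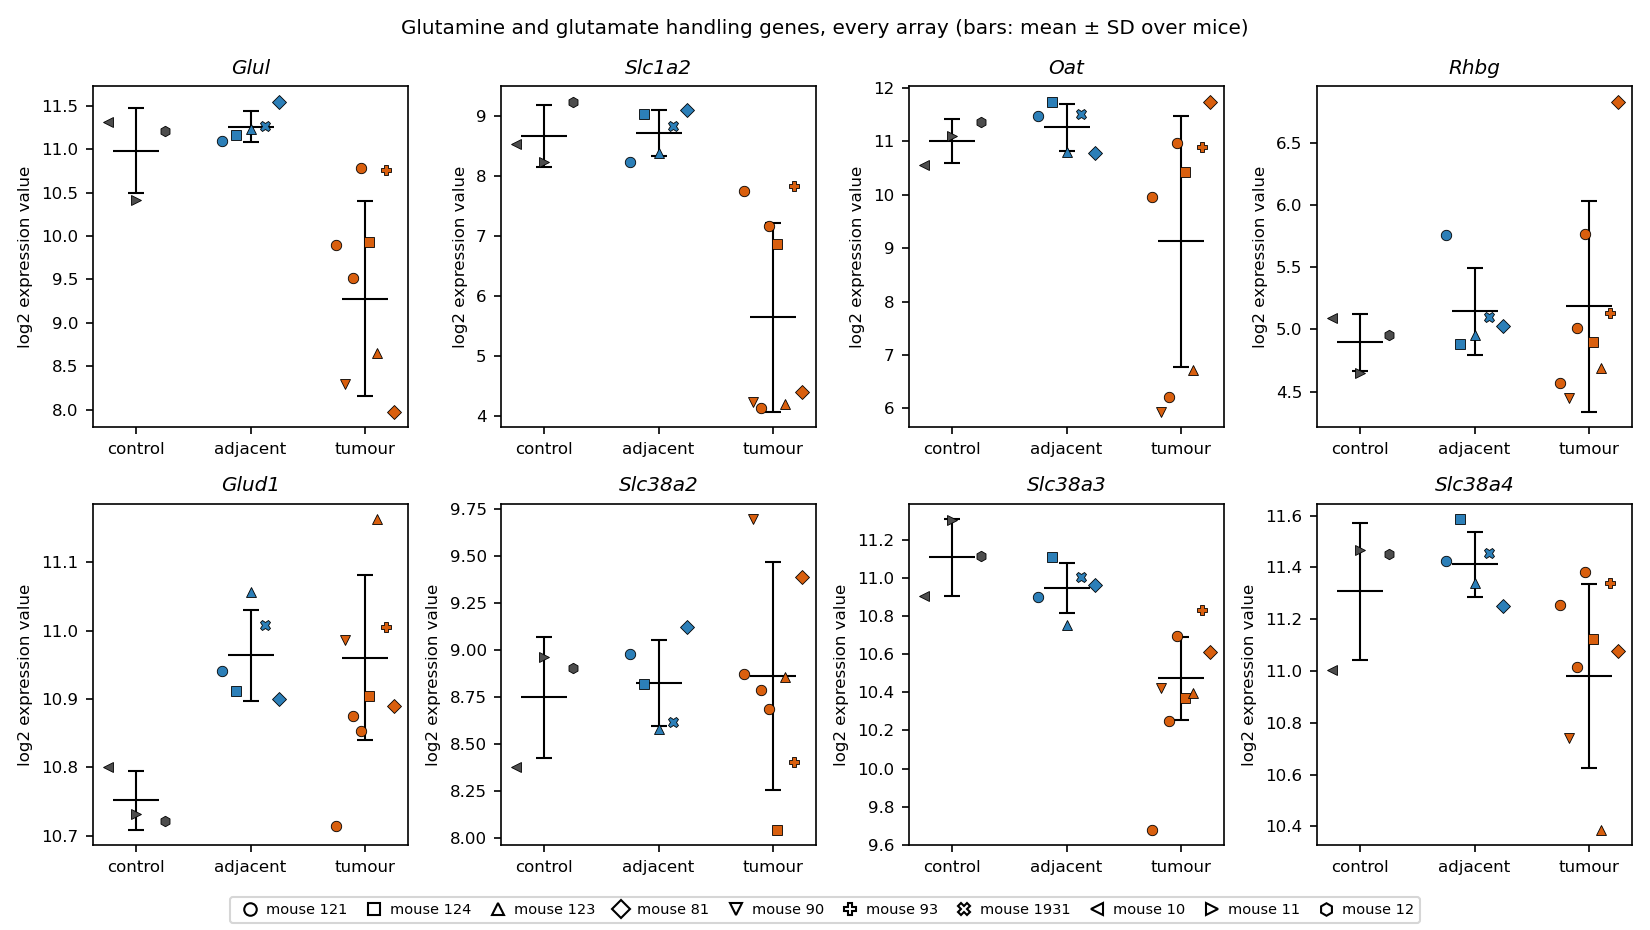
Log2 expression value (vertical axis) of the 8 measured genes on each array, by group: control liver, adjacent liver and tumour; each point is 1 array, and bars give the mean and SD over mice (3, 5 and 6). The Glul and Slc1a2 tumours lie below all adjacent livers, while Oat tumours are spread from 5.94 to 11.75.

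Oat, the mitochondrial enzyme that turns ornithine into glutamate semialdehyde, was split among tumours. Controls 10, 11 and 12 had 10.56, 11.10 and 11.36, and adjacent livers 121, 123, 124, 1931 and 81 had 11.48, 10.80, 11.74, 11.51 and 10.78. Tumour mice ran from 5.94 through a median of 9.75 to 11.75. Tumours 90 and 123 and the unnumbered tumour of mouse 121 lay at 5.94 to 6.73, whereas tumour 81, at 11.75, lay just above the highest adjacent liver. The mean difference of -2.13 (SE 0.85, interval -3.95 to -0.31) had a limma adjusted p of 0.244, with 5 of 6 tumour mice below the adjacent mean of 11.26 ± 0.44 (SD, n = 5).

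Rhbg, which carries ammonia across the hepatocyte membrane, was dim on most arrays. Controls 10, 11 and 12 had 5.09, 4.65 and 4.95, and adjacent livers 121, 123, 124, 1931 and 81 had 5.76, 4.96, 4.88, 5.10 and 5.02. Tumour mice ran from 4.45 through 5.01 to 6.83, the highest being tumour 81. The groups overlapped and the difference was 0.04 (SE 0.33, interval -0.67 to 0.75, adjusted p = 0.972), an estimate that was -0.29 without tumour 81. Mouse 81 thus carried the lowest Glul together with the highest Oat and Rhbg of the tumour mice.

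Glud1, which interconverts glutamate and 2-oxoglutarate, was the steadiest member in tumours. It was 10.75 ± 0.04 in controls (SD, n = 3), 10.96 ± 0.07 in adjacent liver (n = 5) and 10.96 ± 0.12 in tumours (n = 6). The tumour interval relative to adjacent liver, -0.18 to 0.17, includes 0. As mouse values, both kinds of deleted tissue lay above all 3 controls: by 0.21 in adjacent liver (SE 0.10, adjusted p = 0.999) and by 0.21 in tumours (SE 0.10, adjusted p = 0.397). A single array, tumour 2 of mouse 121 (10.71), lay below all 3 controls.

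Of the 3 Slc38 transporters, Slc38a3 and Slc38a4 were lower on average in tumours and Slc38a2 was spread around the adjacent mean. Slc38a3, the system N transporter that carries glutamine into and out of hepatocytes, was 10.90, 11.30 and 11.12 in controls 10, 11 and 12, and 10.90, 10.75, 11.11, 11.002 and 10.96 in adjacent livers 121, 123, 124, 1931 and 81. Tumour mice ran from 10.21 through 10.41 to 10.83. All 6 lay below the adjacent mean and below every control, while tumour 93 overlapped with the lowest adjacent liver. The difference was -0.47 from adjacent liver (SE 0.12, interval -0.73 to -0.21, adjusted p = 0.0925) and -0.63 from controls (SE 0.14, adjusted p = 0.103).

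Slc38a4, a transporter of small neutral and cationic amino acids, was 11.31 ± 0.26 in controls (SD, n = 3), 11.41 ± 0.13 in adjacent liver (n = 5) and 10.98 ± 0.35 in tumours (n = 6). The tumour difference was -0.43 (SE 0.16, interval -0.77 to -0.09, adjusted p = 0.205), with all 6 mice below the adjacent mean and tumour 123 the lowest at 10.39. Slc38a2, a transporter known to be induced when amino acids are scarce, was 8.75 ± 0.32, 8.82 ± 0.23 and 8.86 ± 0.61 in the same groups. Tumour 124 (8.04) was its lowest value and tumour 90 (9.69) its highest, and the difference of 0.04 (SE 0.25, interval -0.50 to 0.57) was -0.13 without tumour 90.

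**Figure D2:**
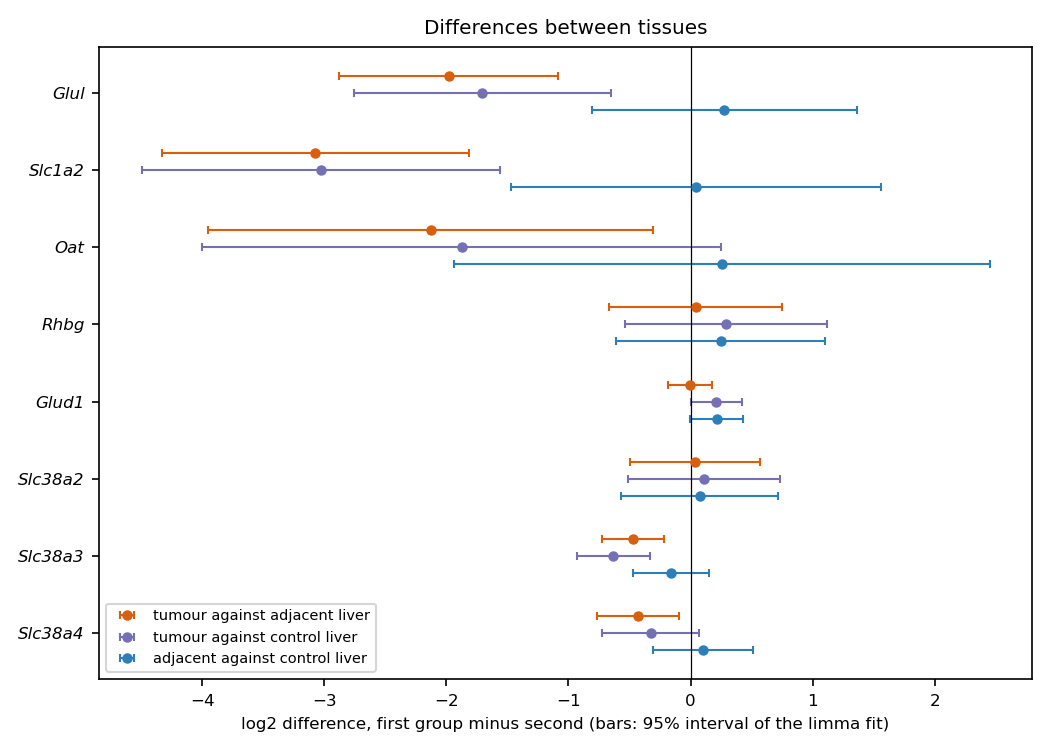
Log2 difference of group means (horizontal axis) of the 8 genes in the 3 comparisons, each point with its 95% confidence interval from limma. Slc1a2, Glul and Oat lie farthest below 0 in tumours, at -3.07, -1.98 and -2.13 from adjacent liver, and the adjacent to control differences lie between -0.16 and 0.28.

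By the adjusted threshold, 0 of 8 members were called in tumours against adjacent liver, where 0.155% of all genes were (36 of 23279). At an unadjusted p under 0.05 in either direction it was 5 of 8 members and 15.3% of all genes. All 5 members were lower, as were 8.32% of all genes. Groups did not overlap, with tumours lower, for 2 of 8 members (Glul and Slc1a2) and 1.11% of all genes. The members' median difference was -0.45, and that of all genes -0.03. In tumours against controls, 0 of 8 were called (0.0258% of all genes) and 4 of 8 had an unadjusted p under 0.05 (12.5%). There Slc1a2 and Slc38a3 lay below all controls (3.08% of genes) and Glud1 above them as mouse values (2.11%). Members were chosen with earlier results of these data known, so their counts and medians beside all genes are descriptions only.

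Between adjacent and control liver no member passed. In adjacent against control liver, 0 of 8 members were called by limma (0% of all genes), and 0 of 8 had an unadjusted p under 0.05, against 4.55% of all genes. The differences ran from -0.16 for Slc38a3 (SE 0.14) to 0.28 for Glul (SE 0.51), with a median of 0.16 beside -0.01 for all genes. The sign turned for Slc1a2 (-0.021), Slc38a2 (-0.11) and Slc38a4 (-0.047) without control 10, and for Slc1a2 (-0.17) and Glul (-0.0056) without control 11. Glud1 was the 1 member whose groups did not overlap, with adjacent liver higher (2.18% of genes). The interval for Glul, -0.81 to 1.36, and that for Slc1a2, -1.47 to 1.56, are wide. Both tumour comparisons and this one share samples, and their values are given side by side only.

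Tumour by tumour, the order of tumours differed between genes. Relative to the adjacent mean, Glul was lowest in tumours 81 (-3.29), 90 (-2.97) and 123 (-2.61), followed by the unnumbered tumour of mouse 121 (-1.75), its tumour 2 (-1.37), tumour 124 (-1.33), tumour 93 (-0.51) and tumour 3 of mouse 121 (-0.47). Slc1a2 differed by -4.59 to -4.32 in the first 4 of these and by -1.85 to -0.89 in the other 4. Oat differed by -5.32 to -4.54 in tumours 90 and 123 and the unnumbered tumour of mouse 121, and by -1.29 to -0.28 in the other 4 that lay below, but tumour 81 was above by 0.49. Tumour 81 thus combined very low Glul and Slc1a2 with Oat and Rhbg above every adjacent liver.

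**Figure D3:**
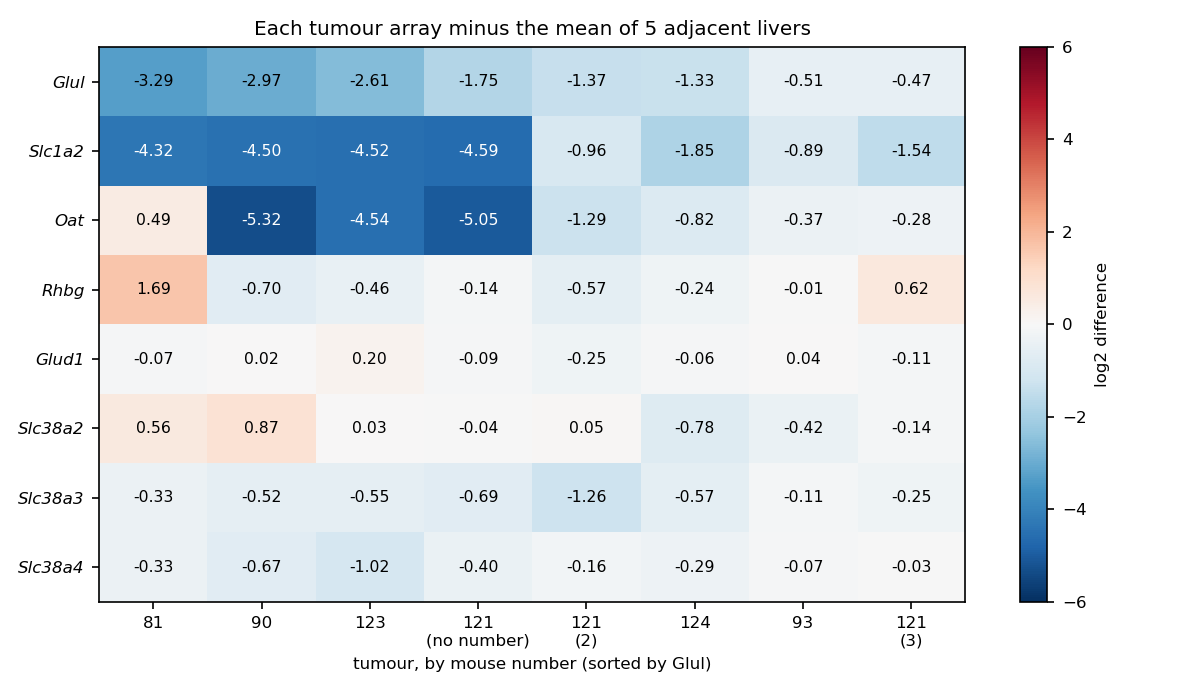
Log2 difference of each of the 8 tumour arrays (columns, by mouse number, sorted by Glul) from the mean of the 5 adjacent livers, for each gene (rows); blue is lower and red higher. Slc1a2 lies between -4.59 and -4.32 in the 4 left columns, and tumour 81 is the only column with Oat above 0.

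Of the 8 members, 6 lay below all 5 adjacent livers in tumour 90 (26.4% of all genes did), tumour 123 (26.4%), tumour 124 (21.7%), tumour 2 of mouse 121 (25.3%) and the unnumbered tumour of mouse 121 (25.2%). The number was 5 in tumour 81 (25.4%), 4 in tumour 3 of mouse 121 (20.5%) and 3 in tumour 93 (17.3%). Glul and Slc1a2 were among them in each tumour. In the other direction, Oat, Rhbg and Slc38a2 in tumour 81, Slc38a2 in tumour 90, Glud1 in tumour 123 and Rhbg in tumour 3 of mouse 121 lay above all adjacent livers. Of all genes, 23.1%, 23.3%, 21.4% and 15.7% did so in these 4 tumours, so 1 member of 8 is no more than the share of all genes.

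For some members the 3 tumours of mouse 121 ranged nearly as widely as the 6 mouse values, or more widely. Slc1a2 was 7.76 in tumour 2, 7.17 in tumour 3 and 4.12 in the unnumbered tumour, a range of 3.64, about that over the 6 mouse values. Oat was 9.97, 10.98 and 6.21 in the same order, a range of 4.77 beside 5.81 over mice. Slc38a3, at 9.68, 10.70 and 10.25, had a range of 1.02 within this mouse, 0.62 over mice and 1.15 over the 8 tumour arrays. Glul ranged over 1.28 (9.90, 10.79 and 9.51) beside 2.78 over mice, and Slc38a2 over 0.19 beside 1.65. The mouse values include this animal's mean, so the ranges are a description.

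Within the 4 mice that gave both tissues, the tumour was below its own adjacent liver in 4 of 4 for Glul, Slc1a2, Slc38a3 and Slc38a4. For Glul the tumour minus adjacent difference was -3.57 in mouse 81, -1.03 in mouse 121, -2.59 in mouse 123 and -1.23 in mouse 124. For Slc1a2 it was -4.70, -1.88, -4.19 and -2.17 in the same mice. The animals with the larger Glul difference, 81 and 123, were those with the larger Slc1a2 difference. Oat was 0.97 higher in the tumour of mouse 81 and differed by -2.43, -4.08 and -1.30 in the others. These 4 signs are too few for a sign test to pass, so none was made.

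**Figure D4:**
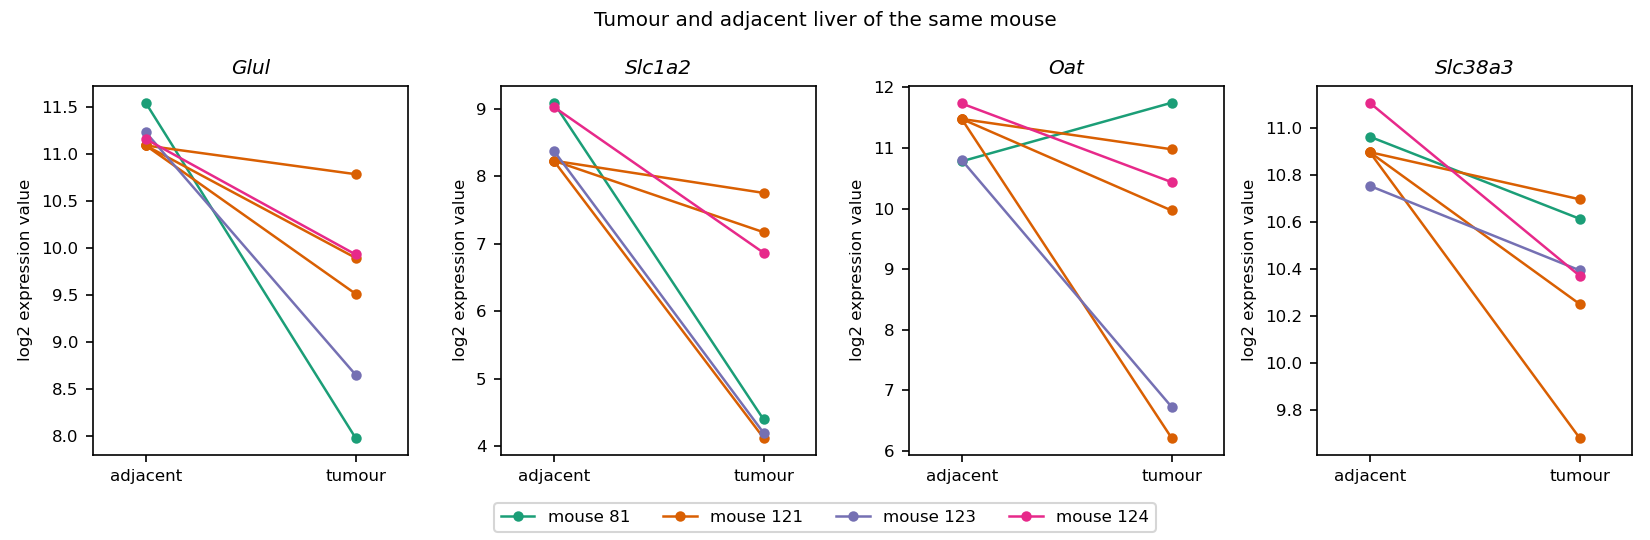
Log2 value of adjacent liver and tumour of the same mouse, 1 panel each for Glul, Slc1a2, Oat and Slc38a3. Lines join the 2 tissues of mice 81, 121, 123 and 124, with 1 line for each of the 3 tumours of mouse 121. Lines for Glul, Slc1a2 and Slc38a3 slope down in 4 of 4 mice, and that of mouse 81 slopes up for Oat.

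Among members, Slc1a2 followed Glul most closely over the 14 mouse and tissue values (Pearson r = 0.97, and 0.96 over the 6 tumour mice). Slc38a4 had r = 0.71 (0.65 over tumour mice), Slc38a3 0.64 (0.14), Oat 0.61 (0.35) and Slc38a2 -0.50 (-0.81). For Rhbg it was -0.22 (-0.30 over tumour mice) and for Glud1 -0.27 (-0.22). Outside the list, the 5 genes most like Glul were Plxnc1, a semaphorin receptor (0.98), Cmah, which modifies sialic acid (0.97), Sntg2, a syntrophin (0.96), Clec4g, a lectin of sinusoidal endothelium (0.96), and Ces3b, a carboxylesterase (0.96). Over tumour mice alone these were 0.97 to 0.99. The points share the tissue groups, 4 mice enter with both tissues, and the 5 genes were picked as the highest of all, so these are descriptions.

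The wider pathway was counted in lists written with earlier results known, and 0 members of any list passed over all genes in any comparison. Beside each count below stand all genes, of which 6.95% were higher and 8.32% lower in tumours than in adjacent liver at an unadjusted p under 0.05, and 44% lay above 0 and 56% below. Of 12 measured transaminases and related enzymes, 1 was higher and 1 lower in tumours than in adjacent liver at an unadjusted p under 0.05 (median difference -0.19). Got1 and Got2, which exchange amino groups between glutamate and aspartate, differed by -0.87 (SE 0.44) and -0.25 (SE 0.15). Of 5 genes linking proline and glutamate, 1 was higher and 3 lower (median -0.59), with Aldh4a1, the last step of proline breakdown, at -0.78 (SE 0.23) and Aldh18a1, the first step of proline synthesis, at 0.47 (SE 0.16). Prodh, which opens proline breakdown (named with its value already seen) was at -1.93 (SE 0.53).

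Enzymes that spend glutamine were mostly above 0. Of 10 amidotransferases, which move the amide nitrogen of glutamine into sugars, nucleotides and asparagine, 4 were higher and 0 lower at an unadjusted p under 0.05, 9 lay above 0, and the median was 0.26. Against controls 1 was higher (5.65% of all genes) and 7 of 10 lay above 0 (42.2% of all genes). Gfpt1 and Gfpt2, which open hexosamine synthesis, differed by 0.47 (SE 0.17) and 0.04 (SE 0.15). Of 21 other plasma membrane carriers of glutamine and glutamate, 5 were higher and 1 lower (median 0.02). Slc1a1, a glutamate transporter, was at 0.91 (SE 0.45) and its relative Slc1a3 at -0.08 (SE 0.09). Slc1a4, a neutral amino acid exchanger, was at 1.72 (SE 0.41, adjusted p = 0.083), and Slc7a11, which exports glutamate in exchange for cystine, at 4.01 (SE 1.04, adjusted p = 0.0929); both were picked with their values already seen. Slc7a11 was the 1 carrier of the 21 with all 6 tumour mice above every adjacent liver, as were 1.12% of all genes. Its adjacent livers (2.80 to 3.21) lay below the median of all values, 4.45, and its tumour mice were spread from 3.46 to 10.50.

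Mitochondrial glutamate carriers (0 higher and 1 lower of 4, median -0.23) included Slc25a22 at -0.47 (SE 0.40) and Slc25a18 at 0.01 (SE 0.15). Ammonia transport and urea entry (0 higher and 2 lower of 6, median -0.23) included the ammonia channels Rhag at -0.20 (SE 0.12) and Rhcg at 0.14 (SE 0.17). Both were dim, with group means of 2.98 to 3.36 and 3.70 to 3.90, below the median of all values, 4.45. The 2 lower genes, named with their values already seen, were Car5a at -1.36 (SE 0.45) and Otc at -0.64 (SE 0.23). The other pericentral genes resembled Glul in sign: 14 of 14 lay below 0 in tumours relative to adjacent liver, 8 at an unadjusted p under 0.05, with a median of -0.54. Against controls 11 of 14 lay below 0 (57.8% of all genes) and 4 were lower at an unadjusted p under 0.05 (6.88% of all genes). Axin2 and Lgr5, targets of beta-catenin, were at -0.52 (SE 0.13) and -0.74 (SE 0.26). Periportal genes were mixed, 2 higher and 4 lower of 11 (median -0.39), with the cytochrome Cyp2f2 at -2.25 (SE 1.10) and the arginase Arg1 at -0.39 (SE 0.27).

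**Figure D5:**
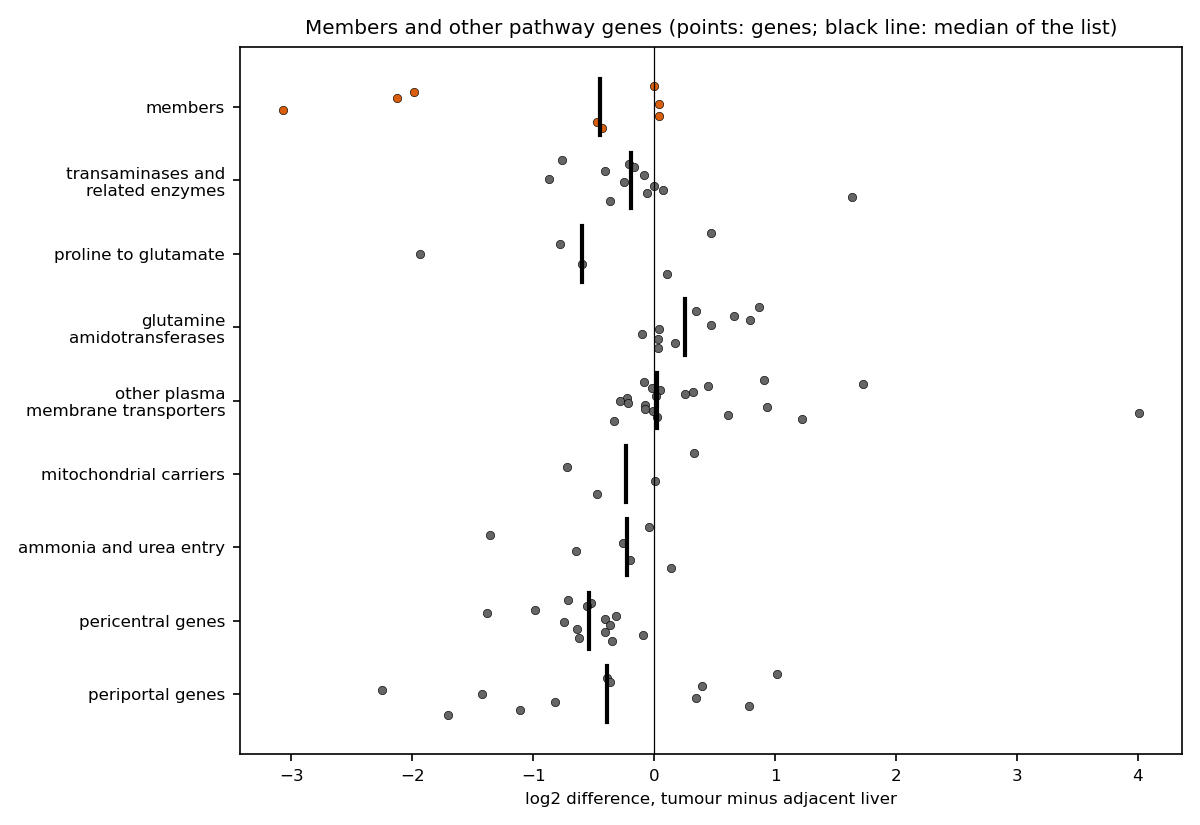
Log2 difference between tumour and adjacent liver (horizontal axis) of every measured gene of each list (points; vertical lines are list medians), with no test drawn. All 14 pericentral genes lie below 0 and 9 of 10 amidotransferases lie above it.

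Levels of zone and cell type genes varied beside the members. The mean log2 value of the pericentral list was 7.38 to 7.84 in controls, 7.55 to 7.96 in adjacent liver, and, in tumours, 6.42 in 81, 7.27 in 90, 7.09 in 123, 7.52 in 124, 7.66 in 93, and 7.36, 7.44 and 6.93 in tumour 2, tumour 3 and the unnumbered tumour of mouse 121. The order of tumours on this list is not that of Glul: tumour 90, among the lowest in Glul, lay above tumour 123 here. Tumour 81, lowest in Glul, was lowest on this list too and also in hepatocyte markers (11.50) and endothelial markers (5.96, beside 6.70 to 7.08 in adjacent liver). Stellate and fibroblast markers were 5.41 to 6.56 in adjacent liver and 5.86 to 6.87 in tumours, and cholangiocyte markers 3.86 to 4.13 and 3.81 to 5.14. Of 9 stellate and fibroblast markers, 4 were higher and 2 lower in tumours than in adjacent liver at an unadjusted limma p under 0.05. Of all genes, 6.95% were higher and 8.32% lower. Clec4g, the sinusoidal gene that resembled Glul, was at -2.41 (SE 0.68) while the endothelial gene Emcn, named with its value already seen, was at 1.69 (SE 0.33). The periportal list was 8.76 to 9.36 in adjacent liver and lowest in tumours 90 (7.34) and 123 (8.03), both among the lowest in Oat. The unnumbered tumour of mouse 121, also among the lowest in Oat, lay within the adjacent range at 8.94. The part of these cell types in the members' differences was not tested.

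Macrophage and Kupffer cell markers were 6.11 to 7.51 in adjacent liver and 5.43 to 7.41 in tumours, and 2 of 7 were lower at an unadjusted p under 0.05. These were Clec4f, at -1.85 (SE 0.59), and Vsig4, at -2.52 (SE 0.91), both of Kupffer cells and picked with their values seen. Neither passed. Of the 7 markers, 4 lay below 0 and 3 above it. Those above were Cd68 (mean 8.08 in tumours and 7.13 in adjacent liver), Adgre1 (6.39 and 6.15) and C1qa (7.32 and 7.10). The part of macrophages and Kupffer cells in the members' differences was not tested. Neutrophil markers were 3.62 to 3.97 in adjacent liver and 3.595 to 4.75 in tumours. Control 10 stood apart in macrophage markers (highest control mean 9.04, lowest 5.81) and neutrophil markers (6.01 and 3.54). It had the lowest control values of Oat (10.56), Slc38a2 (8.38), Slc38a3 (10.90) and Slc38a4 (11.004) and the highest of Glul (11.32), Rhbg (5.09) and Glud1 (10.80). Markers of T and B cells lay at 3.66 to 4.04 in controls, 3.55 to 4.73 in adjacent liver and 3.65 to 4.48 in tumours. Markers of astrocytes and neurons, cells that also use Slc1a2 or Glul, lay at 3.77 to 4.28, and those of kidney and pancreas at 3.61 to 3.87, both below or near the median of all values.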

How the data were processed

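Per the labels' protocols, RNA came from a Trizol extraction and was amplified and biotinylated. The authors deposited log2 expression values, for which the submitters' processing notes name RMA and Partek without versions or roles; RMA equalises array distributions, which removes global shifts, and compresses changes of dim genes. Chip, probe definitions and build: not given in the sources used here, so which part of a gene is probed is unknown. The platform annotation gave 1 symbol for 23281 of 24479 probe sets, several for 0 and none for 1198; for 2 symbols the brighter of 2 probe sets was kept, leaving 23279 genes.

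Groups came from the sample titles. The 3 tumours of mouse 121 were averaged, and the 3 groups were fitted together in limma 3.58.1 (R 4.3.3; lmFit, eBayes with an intensity trend), with Benjamini-Hochberg adjustment over all genes; the script was tested on simulated data. Members and lists were chosen with earlier results of these data known. Named genes are all members, Axin1, the first 2 measured of a list with no gene past the threshold, and the 5 genes most correlated with Glul; others are marked. Titles pair 4 mice across tissues. The mean correlation of paired deviations was 0.0789 (0.0349 to 0.0998), and that of other pairs -0.0116 (-0.328 to 0.317). The highest of the other pairs, 0.317, was adjacent liver 1931 with tumour 93. Whether these numbers are the same mouse is not given, and they were counted as different mice. Alternatives were a mouse block, rescaling, a filter on dim genes, array weights, other uses of the tumours of mouse 121 and each tissue value of a mouse left out; both tissues of a mouse left out, a block over averaged tumours, and counts of groups without overlap under omission were added after the data were seen. No batch is given in the labels.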

Additional observations from a re-analysis of the deposited data

Results flagged for a closer look

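Rhbg had 2 values apart from their group, among 16 checks of a gene in adjacent liver or tumours; chance gives about 1 in 20. In adjacent liver, mouse 121 had 5.76 and the nearest of the other 4 mice 5.10, a gap of 0.756 of the group's range. Among tumours, mouse 81 had 6.83 and the nearest of the other 5 mice 5.13, a gap of 0.711 of the range. Tumour 3 of mouse 121 had 5.76, like the adjacent liver of that animal, while its tumour 2 had 4.57 and its unnumbered tumour 5.01.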

How the results depend on the processing

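Glul, Slc1a2, Oat, Slc38a3 and Slc38a4 kept their direction in tumours against adjacent liver under all 14 alternatives other than the omissions. Among these, the fixed block holds only the 4 mice with both tissues, and the fit of only the 2 groups compared holds no controls. The fixed block gave the highest adjusted p of Glul and of Slc1a2. Glul passed under 5 of them (adjusted p 0.0345 to 0.152), Slc1a2 under 6 (0.0174 to 0.112), Slc38a3 under 1 (0.0217 to 0.198). The number of members called was 0 as reported, 2 after leaving dim genes out (12787 genes kept), 3 with array weights, 2 with only the unnumbered tumour of mouse 121, 2 with a random replicate block per mouse over 16 arrays (also with 93 and 1931 as 1 mouse), 1 with that block over averaged tumours of mouse 121 (added after seeing the data) and 0 with a fixed block. Leaving out 1 tissue value of 1 mouse gave 0 to 3 in tumours against adjacent liver and 0 to 3 in tumours against controls. It was 3 without tumour 93 in both, where 3.19% and 1.04% of all genes were called. All genes called numbered 36 as reported, 181 after the filter, 442 with weights, 206 with the random block (106 with averaged tumours), 0 with the fixed block and 5 to 743 with 1 tissue value left out, the highest without tumour 93. Leaving out both tissues of mouse 81, 121, 123 or 124, added after seeing the data, gave 0 members and 1 to 8 genes. Members with tumours below all adjacent livers were 2 to 4 with 1 tissue value left out (4 without tumour 93, where the share of all genes was 3.14% against 1.11%), and those with adjacent liver below all controls 0 to 1 (1 without control 10, where the share was 5.95% against 2.04%).

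Signs near 0 turned. In tumours against adjacent liver, Glud1 was 0.033 after quantile normalization, 0.0066 with only the unnumbered and 0.0031 with only tumour 3 of mouse 121; Rhbg was -0.025 with array weights and -0.049 with only tumour 2; Slc38a2 was -0.10 with weights and -0.11 with the fixed block, and in tumours against controls -0.038 with weights. With 1 tissue value left out, tumours against adjacent liver ran from -0.044 to 0.026 for Glud1, -0.13 to 0.20 for Slc38a2 and -0.29 to 0.19 for Rhbg. Adjacent against control liver ran from -0.17 to 0.33 for Slc1a2, -0.11 to 0.18 for Slc38a2, -0.047 to 0.18 for Slc38a4 and -0.0056 to 0.44 for Glul. Tumours against controls ran from -0.071 to 0.28 for Slc38a2 and -0.040 to 0.44 for Rhbg. Without both tissues, Glud1 was 0.020 (mouse 121), Slc38a2 -0.021 (mouse 123) and Rhbg -0.32 (mouse 81) against adjacent liver, Rhbg -0.040 (mouse 81) against controls, and Slc1a2 -0.034 (mouse 124) and -0.049 (mouse 81) in adjacent against control liver. The cause was not tested. Rhbg lies near the median of all values, where RMA compresses differences.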
